A study of Mus musculus with 4 samples.

Results

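The let-7 and miR-98 guide arms are the 5p strands of a family of miRNAs that carry the same seed, the stretch near the 5′ end through which a miRNA pairs with its targets. The 9 members were taken by name, and all 9 were present among the 1038 miRNAs of the deposited table. Small RNA had been sequenced from the medial prefrontal cortex of male mice, labelled C57BL/6 (C57BL/6J in the authors' methods). There were 2 libraries from control mice and 2 from mice under chronic unpredictable mild stress (CUMS). The mice were juvenile when the protocol began, and tissue was taken several weeks later, after adaptation, the stress period and behavioural tests. In CUMS, mice meet mild stressors of housing, handling, light and sound over several weeks, in an order they cannot foresee, and control mice meet none of them. The CUMS mice that were sequenced had met behavioural criteria for a depression-like state in the sucrose preference, Y-maze and forced swimming tests, so they stand for susceptible mice and not for all stressed mice. Resilient mice were not part of the comparison, which asks how miRNA levels in this cortex differ between depression-like and control mice. Whether a library holds the RNA of 1 mouse or of several is not given in the sources used here. The authors' methods isolate RNA mouse by mouse and call the samples biological duplicates, but do not say whether RNA was then pooled. The p-values measure only the spread between these libraries.

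The let-7 miRNAs were among the earliest miRNAs found and are nearly the same in sequence from worms to mammals. Their precursors are held back by the RNA-binding protein LIN28 in stem cells and early progenitors, and the mature miRNAs accumulate as cells leave the cell cycle and differentiate, neurons included. In an Argonaute protein they repress mRNAs such as those of Lin28, Hmga2, Ras and Myc family genes, and mature neurons hold them at high levels. From each precursor hairpin 2 strands are cut, and in this family the 5p strand is the one mostly kept, hence the name guide arm, while the 3p passenger strand is mostly degraded.

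The mature sequences of all 9 members were matched in the RefSeq miRNA table on GRCm38.p6. They are shown because the members differ by so few bases that a reader can see what separates one from another, with the seed at bases 2 to 8 in capitals.
mmu-let-7a-5p: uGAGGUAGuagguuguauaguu
mmu-let-7b-5p: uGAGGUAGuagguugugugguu
mmu-let-7c-5p: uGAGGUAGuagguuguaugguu
mmu-let-7d-5p: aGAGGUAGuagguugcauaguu
mmu-let-7e-5p: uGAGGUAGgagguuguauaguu
mmu-let-7f-5p: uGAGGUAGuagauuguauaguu
mmu-let-7g-5p: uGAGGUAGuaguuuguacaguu
mmu-let-7i-5p: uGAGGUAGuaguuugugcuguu
mmu-miR-98-5p: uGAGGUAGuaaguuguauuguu
All 9 are 22 nt long and share the seed GAGGUAG. Positions below are counted from 1 at the 5′ end, with the base of let-7a-5p first. Each of let-7c (A19G), let-7e (U9G) and let-7f (G12A) differs from let-7a at 1 base. At 2 bases each, let-7b (A17G and A19G), let-7d (U1A and U16C), let-7g (G12U and U18C) and miR-98 (G11A and A19U) differ from it. The most distant from let-7a was let-7i, with 4 differences (G12U, A17G, U18C and A19U). Over the 36 pairs of members, the number of differing bases ran from 1 to 6, and the pair with 6 was let-7d and let-7i.

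Reads from members this alike can be counted for the wrong one. The shortest reads that the authors counted had 18 nt, and how they treated reads that match more than 1 miRNA is not given in the sources used here. Only 1 of the 36 pairs, let-7a and let-7c, shares an unbroken run of 18 bases or more, the first 18 bases of both. A read trimmed to those bases cannot be told apart between the pair, so the values of let-7a and let-7c are uncertain to that extent. For every other pair a read of the minimum length that lies within the mature sequence covers at least 1 differing base. The authors also accepted reads offset from the mature sequence, which overlap it by fewer bases. The next longest shared run, 16 bases, occurs in 3 pairs, let-7a and let-7b, let-7b and let-7c, and let-7g and let-7i. Some offset reads of these pairs may be uncertain too. Such reads also cover precursor bases beside the mature sequence, which were not compared here.

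The family comes from 12 precursors on 7 chromosomes in RefSeq on GRCm38.p6, and host genes were read from GENCODE M21 on the same build. The sequences of let-7a-5p, let-7c-5p and let-7f-5p each lie in 2 precursors, so their reads sum over 2 loci that mature sequence cannot separate. Mirlet7a-1 (chr13:48538179-48538272), Mirlet7f-1 (chr13:48537829-48537917) and Mirlet7d (chr13:48536012-48536114) lie within 2261 bases on the minus strand, in exons of the long noncoding RNA gene 6720427I07Rik. Mirlet7c-2 (chr15:85706603-85706697) and Mirlet7b (chr15:85707319-85707403) lie within 801 bases in exons of the noncoding gene Lncppara. Mirlet7f-2 (chrX:151912346-151912428) and Mir98 (chrX:151913214-151913321) share an intron of Huwe1, which encodes a ubiquitin ligase. Mirlet7g (chr9:106178840-106178927) lies in an intron of Wdr82, and Mirlet7i (chr10:122985640-122985724) in an exon of the transcribed pseudogene D630033A02Rik. The other precursors have miRNAs of the miR-99, miR-100 and miR-125 families nearby on the same strand. These are Mirlet7e (chr17:17830352-17830444) in an intron of Spaca6, Mirlet7c-1 (chr16:77599657-77599750) in an intron of Mir99ahg and Mirlet7a-2 (chr9:41536716-41536811) in introns of 3110039I08Rik and Gm49317.

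The deposited table gives 1 mean normalized count for each group, that is the mean over its 2 libraries of reads divided by a size factor. Such a mean is a sum of whole reads of each library times a fixed step, and whole reads were recovered for 100% of the 1038 values in both groups, with a relative residual under 1e-09. The recovered libraries are called control a, control b, CUMS a and CUMS b, and the letters only separate them. Where 2 values of a group are given, library a comes before library b. Their reads on miRNAs totalled 10533646, 10783592, 10427625 and 9589323, so that the floor of 3 reads lay between 2.78e-05% and 3.13e-05% of a library. Without molecular identifiers on the reads, intervals and floors here cover counting error only.

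Control b stood apart from the other libraries in miRNAs outside the family. Its epithelial markers, that is the clustered miR-182, miR-183 and miR-96 with the miR-200 family, summed to 1004812 normalized counts, against 4047 in control a, 4936 in CUMS a and 7329 in CUMS b. All 8 markers of this list were highest in control b, and miR-182-5p was the most abundant, with 962144 reads there and 3931 in control a. These miRNAs, with their other arms 14 in all, took 9.32% of the reads of control b and up to 0.0722% elsewhere. Their part in the values of the let-7 family was not tested, and the family share, the log2 differences, the order of members and the ratio of guide to passenger reads are also given without control b.

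The 9 members together held 29.6% of all miRNA reads in control a, 20.7% in control b, 21.3% in CUMS a and 22.7% in CUMS b. Control a was thus the high library, and the other control library lay below both CUMS libraries. This order of the control libraries rests on the pair of reads taken for let-7f-5p, described below. With the next best pair, a setting chosen after seeing the data, the shares of control a and control b were 19.4% and 29.3%, and the difference between the groups was -2.34 percentage points. The 95% Wilson intervals of these shares were narrower than 0.1 percentage points, from 29.62% to 29.67% in control a and from 20.72% to 20.77% in control b. The depth therefore did not limit the comparison, and the spread between libraries did. The mean share was 25.2% ± 6.29 (SD, n = 2) in control and 22.0% ± 0.986 (SD, n = 2) in CUMS. The difference, CUMS minus control, was -3.16 percentage points, and the two-sided exact permutation test gave p = 1. With 2 libraries against 2 that test cannot give a p below 0.333. Without control a the difference was 1.29 percentage points, in the other direction, and without control b it was -7.61. In bulk tissue, fewer cells of a type and less RNA per cell cannot be told apart.

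With the 14 epithelial miRNAs taken out of the total, the shares were 29.7% (control a), 22.9% (control b), 21.3% (CUMS a) and 22.7% (CUMS b). Control b then lay narrowly above that of CUMS b. The difference was -4.22 percentage points, and the exact permutation p took its smallest possible value of 0.333. Without let-7f-5p, the remaining 8 members held 11.9%, 8.54%, 8.62% and 9.82% in the order given, and with the next best pair control a and control b had 13.6% and 7.62%. The summed normalized counts of these 8 members, which the choice of pair does not touch, were 1225044 in control a, 920460 in control b, 846416 in CUMS a and 997750 in CUMS b, so control a was highest for them too.

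**Figure D1:**
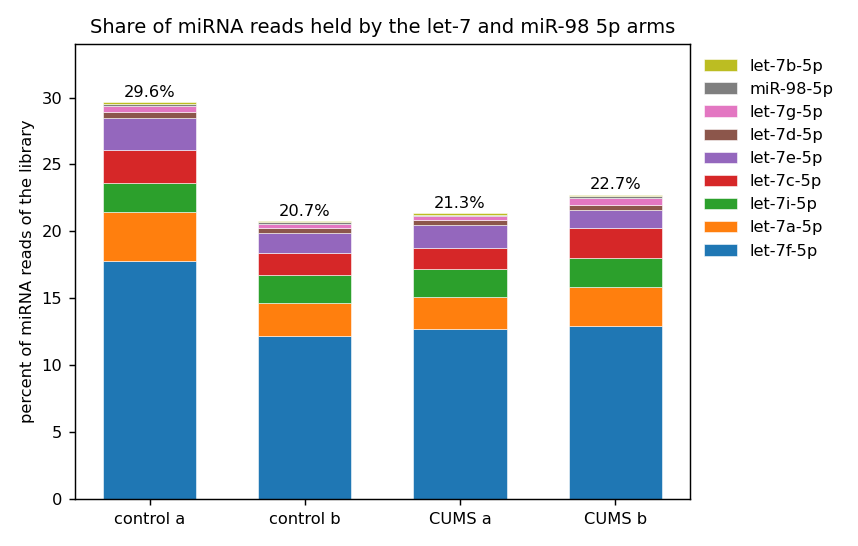
Stacked bars give the percent of a library's miRNA reads held by each of the 9 members in control a, control b, CUMS a and CUMS b, with the sum above each bar. The sum is 29.6% in control a and between 20.7% and 22.7% in the other 3 libraries, and let-7f-5p is the largest block in each.

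The family was dominated by let-7f-5p, which held 59.9% of the family's reads in control a, 58.8% in control b, 59.6% in CUMS a and 56.8% in CUMS b. It ranked 1 among all miRNAs in control a and 2 in the other 3 libraries. With the next best pair it would hold 29.9% of the family's reads in control a and 74.0% in control b, with ranks of 4 and 1, while the CUMS values stay. The 5 largest members, let-7f, let-7a, let-7i, let-7c and let-7e, held between 95.0% and 96.1% of the family's reads, and all 5 were among the 20 most abundant miRNAs of each library. The smaller members let-7d, let-7g, miR-98 and let-7b ranked between 29 and 81. All 9 members have the same length, so reads need no length correction, but they were not corrected for unequal ligation of different sequences.

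By mean normalized count over the 4 libraries, the order was let-7f, let-7a, let-7i, let-7c, let-7e, let-7d, let-7g, miR-98 and let-7b. The largest step was between let-7f and let-7a, whose means differed 4.84 times. The next largest, 4.56 times, lay between let-7e and let-7d. Of the 8 neighbouring pairs, 5 kept their order in all 4 libraries with ranges that did not overlap. The ranges overlapped for let-7i and let-7c, for let-7c and let-7e and for let-7d and let-7g. In 2 of 4 libraries let-7i was above let-7c, in 3 of 4 let-7c was above let-7e, and in 2 of 4 let-7d was above let-7g, so these neighbours do not differ beyond their spread. Without control b, 7 of 9 members kept their place in the order. Genomic neighbours did not have like levels. From the locus on chromosome 13, the mean of let-7f was 1426415 and that of let-7d was 39090. From the locus on chromosome 15, let-7c had a mean of 203021 and let-7b of 9369, although let-7f and let-7c each have another locus too.

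**Figure D2:**
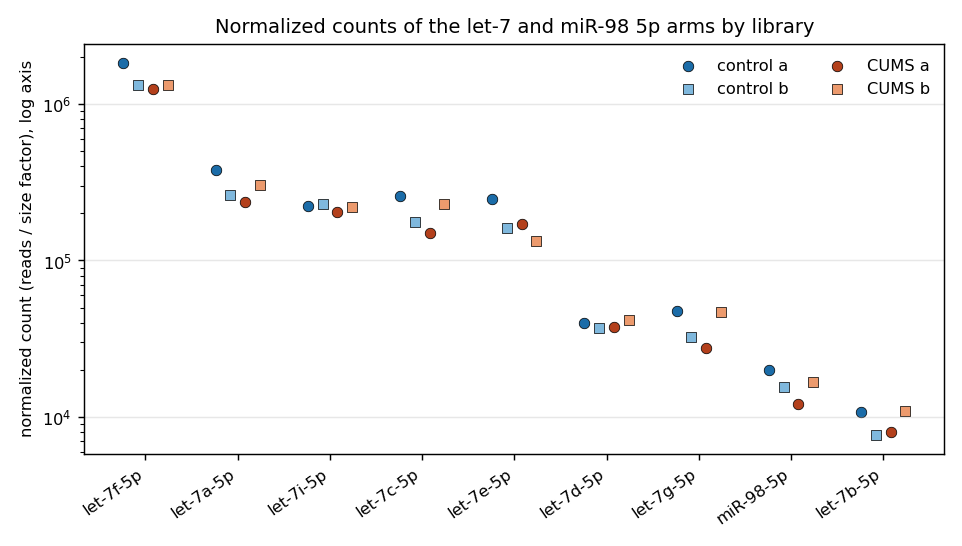
Points give the normalized count (reads divided by the size factor of the library, log axis) of each member in the 2 control and 2 CUMS libraries, with the members in order of their mean. Counts run from 7692 for let-7b-5p in control b to 1829654 for let-7f-5p in control a, and the libraries of a member lie close together beside the steps between let-7f and let-7a and between let-7e and let-7d.

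In 7 of 9 members the mean of the log2 values was lower in CUMS than in control, and in let-7d and let-7b it was higher. Of the 719 miRNAs tested, those reaching 5 reads in some library, 49.5% had a lower mean in CUMS. The members' median log2 difference, CUMS minus control, was -0.20, beside 0.00 for all 719. No member passed the test, limma on log2 of the normalized count plus 1, and neither did any other miRNA (0%). At an unadjusted p under 0.05 limma had 28 of 719 miRNAs, of which 0 were members. The edgeR quasi-likelihood test and the DESeq2 Wald test on the recovered reads also called 0 miRNAs, and they had 30 and 24 at an unadjusted p under 0.05. All 9 members passed the filter on low reads.

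The direction shared by 7 members was the same under the scaling of edgeR, of DESeq2 and of counts relative to library totals, but it turned with single libraries. Without control a, 5 of 9 members were higher in CUMS, and without CUMS a, 4 of 9 were. Without control b and without CUMS b, 0 of 9 were higher. The next best pair of reads for let-7f, chosen after seeing the data, gave 3 of 9. The members' log2 differences without control b ran from -0.71 in let-7e to -0.0179 in let-7d, with a median of -0.47. A single library of either group therefore changed how many members lay on each side.

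The normalized count of let-7f-5p was 1829654 in control a, 1315815 in control b, 1248450 in CUMS a and 1311741 in CUMS b. Control a was high, and the CUMS libraries lay below both control libraries, by a narrow margin for CUMS b. The log2 difference was -0.28 (standard error 0.19, 95% interval -0.75 to 0.19, limma adjusted p = 0.835). It was -0.0401 without control a and -0.52 without control b, so its size depended on the control library kept. The reads of let-7f in the control group are the least certain of the family. The pair of reads taken, 1870532 and 1316342, left a residual of 0.483 of the last digit in the file. The next best, 533753 and 2624431, left 3.03, above the largest residual of any control miRNA, 0.647. The next best pair was about as close for miR-181a-5p in control, 2162 and 2778418 beside the pair taken, 1338941 and 1470329, and left 3.05. Under that pair control b would be the high library for let-7f, and its log2 difference would be 0.13, a setting chosen after seeing the data. The deposited means themselves, 1572735 for control and 1280096 for CUMS, do not depend on this choice.

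For let-7a-5p, which in mouse comes from the loci on chromosomes 13 and 9, the normalized counts were 379182 and 261670 (control) and 236642 and 300988 (CUMS). The groups overlapped, since CUMS b lay between the control libraries. The log2 difference was -0.24 (standard error 0.22, 95% interval -0.78 to 0.30, limma adjusted p = 0.886), and it was 0.03 without control a.

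The member with the largest difference in size was let-7e-5p, with 246820 and 161849 (control) and 170002 and 133967 (CUMS). CUMS a lay between the control libraries, so the groups overlapped. The log2 difference was -0.41 (standard error 0.24, 95% interval -0.97 to 0.16, limma adjusted p = 0.835). It kept its sign with each library left out, from -0.71 to -0.10. In miR-98-5p, the normalized counts were 19909 and 15675 (control) and 12212 and 16686 (CUMS), and the groups overlapped as well. The log2 difference of miR-98 was -0.31 (standard error 0.21, limma adjusted p = 0.835). It was -0.48 without control b, and with each library left out it ran from -0.53 without CUMS b to -0.0823 without CUMS a.

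The steadiest members were let-7i-5p and let-7d-5p. In let-7i the normalized counts were 224034 and 227647 (control) and 203718 and 218460 (CUMS), so both CUMS libraries were lower than both control libraries on this scale, with little spread. Its log2 difference was -0.10 (standard error 0.13, 95% interval -0.42 to 0.23, limma adjusted p = 0.914), and -0.09 without control b. In let-7d they were 40131 and 36841 (control) and 37547 and 41840 (CUMS), with overlapping groups and a log2 difference of 0.04. Of the 9 members, let-7f and let-7i had both CUMS libraries below both control libraries and 0 had both above on normalized counts. Among all 719 miRNAs, 17.1% had both CUMS libraries below and 16.7% had both above, so 2 of 9 members is near that background. The count turned with the pair of reads taken for let-7f, as with the next best pair it was 1 of 9, let-7i alone. It turned with the scaling as well, and both comparisons were chosen after seeing the data. As percent of all miRNA reads it was 0 of 9, since CUMS b was above control b for let-7f (12.9% against 12.2%) and for let-7i (2.15% against 2.11%), and without the 14 epithelial miRNAs in the total it was 2 of 9. The background moved as well. On percent of all miRNA reads, 11.8% of the 719 miRNAs had both CUMS libraries below and 22.7% both above, and without the 14 miRNAs these shares were 15.99% and 17.39%.

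In let-7c-5p, let-7g-5p and let-7b-5p the spread within the CUMS group was wide. The counts of let-7g were 47259 and 32632 (control) and 27634 and 46764 (CUMS), so that its lowest and its second highest value were the CUMS libraries. Those of let-7c were 256993 and 176453 (control) and 150623 and 228014 (CUMS). Those of let-7b, the member with the fewest reads, were 10716 and 7692 (control) and 8038 and 11031 (CUMS). The log2 differences, -0.20 for let-7c, -0.13 for let-7g and 0.05 for let-7b, each changed sign when a single library was left out. Over the 9 members the adjusted p of limma lay between 0.835 and 0.950.

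**Figure D3:**
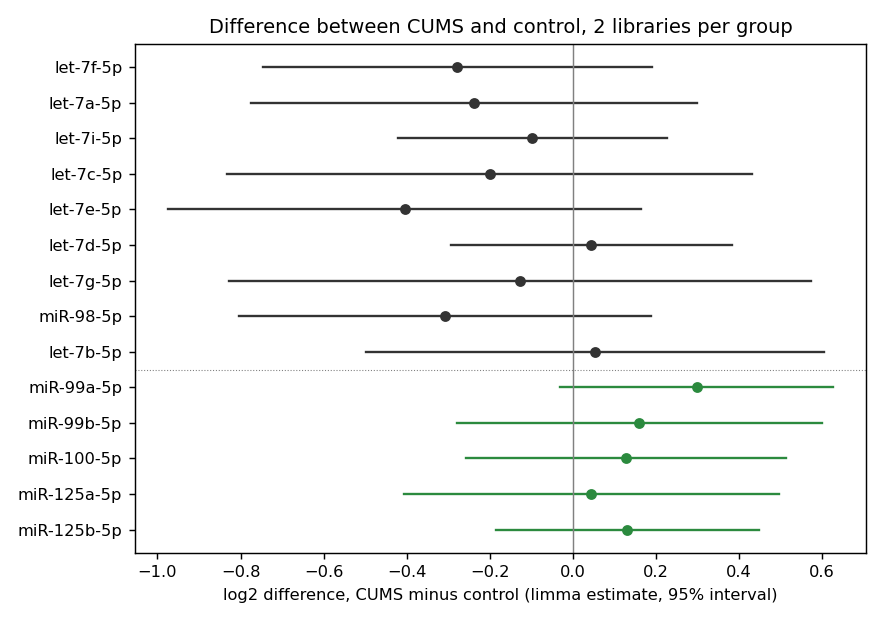
Points are log2 differences, CUMS minus control, estimated by limma from 2 libraries per group, and bars are 95% intervals, for the 9 members (black) and 5 other miRNAs made from the same primary transcripts (green). All intervals include 0, and the estimates run from -0.41 for let-7e-5p to 0.30 for miR-99a-5p.

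For most members the control libraries differed from each other more than the groups did, as was so for most miRNAs. In 8 of 9 members the difference between control a and control b on the log2 scale was larger in size than the difference between the groups, and let-7i was the exception. The same held for 57.4% of the 719 miRNAs tested and for 60% of the 170 whose mean reached 1000 normalized counts. Control a was above control b in 8 of 9 members, and the ratio passed 1.25 in 7 of 9, from 1.27 in miR-98 to 1.52 in let-7e. It was 1.39 in let-7f, 1.45 in let-7a, 1.46 in let-7c, 1.45 in let-7g and 1.39 in let-7b. The ratio was 1.09 in let-7d and 0.984 in let-7i. For let-7f the ratio rests on the pair of reads taken. Under the next best pair its normalized counts would be 522089 in control a and 2623381 in control b, and let-7f would drop out of both counts of members. Among these 170 miRNAs, control a was above control b in 51.8% and the ratio passed 1.25 in 10%. The median log2 ratio of control a over control b was 0.48 for the members and 0.01 for these 170 miRNAs. The members share sequence and transcripts, so they are not independent observations of a difference between libraries.

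**Figure D4:**
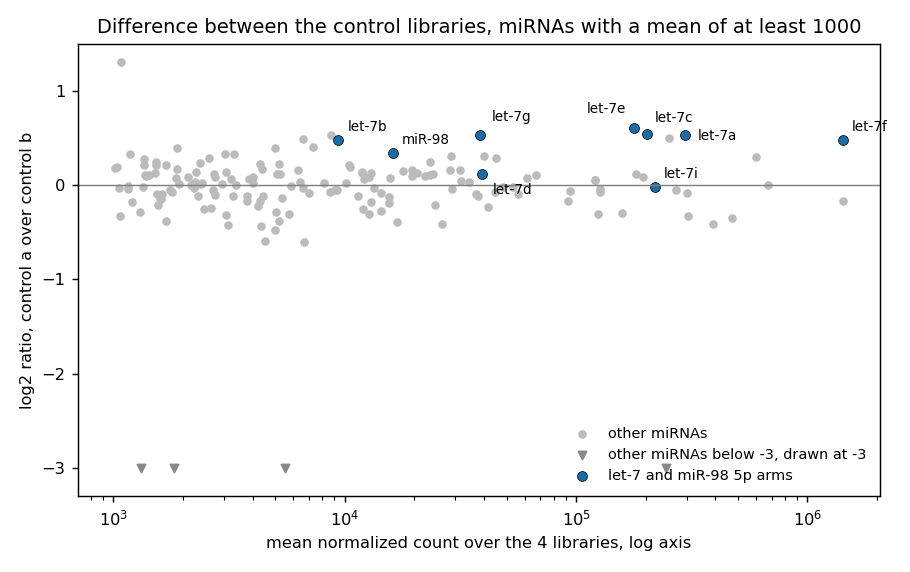
Each point is a miRNA with a mean of at least 1000 normalized counts, placed by its mean over the 4 libraries (log axis) and by the log2 ratio of control a over control b. The 9 members (blue) lie from -0.02 for let-7i to 0.61 for let-7e, with a median of 0.48 against 0.01 for all 170 miRNAs, and 4 miRNAs of the epithelial list below -3 are drawn at -3.

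Within the CUMS group, CUMS b was above CUMS a in 8 of 9 members, against 51.8% of the 170 miRNAs, and let-7e was the exception. The ratio of CUMS a over CUMS b was 0.591 in let-7g, 0.661 in let-7c and 0.952 in let-7f, and it was 1.27 in let-7e.

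The members did not vary as a single block. Across the 4 libraries the log2 ratio of let-7c to let-7g was the most constant of the 36 pairs, with an SD of 0.08 and values from 2.29 to 2.45, although these members differ at 3 bases and come from different chromosomes. Next were let-7a to miR-98 (SD 0.10), let-7d to let-7i (SD 0.10) and let-7a to let-7c (SD 0.10). The first 2 of these pairs share no precursor locus, while let-7a and let-7c share the 18 bases described above. The least constant was let-7e to let-7g, with an SD of 0.48 and values from 1.52 in CUMS b to 2.62 in CUMS a. The median SD over the 36 pairs was 0.239. Of the 5 pairs that share a locus, 4 had an SD below that median, which by definition has as many of the 36 pairs below it as above. On chromosome 13 these were let-7a to let-7f (0.12) and let-7d to let-7f (0.237, barely below the median). The others were let-7b to let-7c (0.16) of chromosome 15 and let-7f to miR-98 (0.16) of the X chromosome. The pair above the median was let-7a to let-7d (0.25). The SDs of pairs with let-7f, and so the count of 4 and the least constant pair, rest on the pair of reads taken for let-7f in control. Under the next best pair its normalized counts would be 522089 in control a and 2623381 in control b, and the SDs were not recomputed with these. With 4 libraries the SDs describe the libraries at hand.

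The 5p miRNAs made from the same primary transcripts as let-7a-2, let-7c-1 and let-7e had another pattern. All 5 of them, miR-99a, miR-99b, miR-100, miR-125a and miR-125b, had a higher mean in CUMS, and 0 passed the test. Of all 719 miRNAs tested, 363 had a higher mean in CUMS. These 5 share transcripts with each other, and miR-125b comes from loci on chromosomes 9 and 16, so they are not independent observations. Their median log2 difference was 0.13. Both CUMS libraries lay above both control libraries for miR-99a and miR-125b, that is for 2 of 5 beside 16.7% of all 719 miRNAs. The normalized counts of miR-99a-5p, which lies upstream of let-7c-1, were 25746 and 26549 (control) and 33866 and 30509 (CUMS). Its log2 difference was 0.30 (standard error 0.14, 95% interval -0.03 to 0.63, limma adjusted p = 0.835). Without control a, 2 of the 5 were higher in CUMS, and without control b all 5 were.

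The transcript of let-7e holds miR-99b (chr17:17830194-17830215) before it and miR-125a (chr17:17830817-17830840) after it. The normalized counts of miR-99b-5p were 393555 and 499880 (control) and 544501 and 451055 (CUMS). Those of miR-125a-5p were 332526 and 440884 (control) and 427482 and 364416 (CUMS). For both, control a was the lowest library, whereas for let-7e it was the highest, at 1.52 times control b. The ratio of control a over control b was 0.787 for miR-99b and 0.754 for miR-125a. In the CUMS group the 3 miRNAs of this transcript lay on the same side, with CUMS a over CUMS b at 1.27 for let-7e, 1.21 for miR-99b and 1.17 for miR-125a. Control a was below control b for all 5 of the miR-99, miR-100 and miR-125 miRNAs. It was above control b for 8 of 9 let-7 members, with the pair of reads taken for let-7f.

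The passenger strands were rare beside the guides. Among the 3p arms of the family, 11 were in the table, and their reads summed to 879 in control a, 538 in control b, 1012 in CUMS a and 723 in CUMS b. The 9 guides thus had 3553, 4158, 2198 and 3015 reads for each read of a passenger arm in control a, control b, CUMS a and CUMS b. These arms do not include the 3p arm of Mirlet7f-1, although guide reads from that precursor count in let-7f-5p. Any reads of that arm would lower these ratios and the share of let-7d-3p given below. The 2 control ratios rest on the pair of reads taken for let-7f. Under the next best pair let-7f had 533753 reads in control a and 2624431 in control b, so the ratio would be lower in control a and higher in control b. The mean over libraries was 3231, with 2922 without control b and 3459 with that next best pair. In the passenger sums 1 arm stands under 2 names, and with it counted once the ratios were 3665, 4229, 2247 and 3201. The main exception was mmu-let-7d-3p, with the sequence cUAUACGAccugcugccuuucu (seed in capitals), which alone held between 72.3% and 83.8% of the passenger reads, or between 76.8% and 85.7% with the shared arm counted once. It had 693 and 440 reads (control) and 848 and 523 reads (CUMS), or 1 read for 59.2, 83.8, 47.0 and 75.5 reads of its guide. At the other hairpins with arms of their own name, the guide had between 776 and 6979 reads for each passenger read wherever the passenger was read. The lowest of these rests on 11 reads of let-7b-3p in CUMS a, and in control b miR-98 had 15681 guide reads and 0 passenger reads. At let-7i it had 6736 and 6901 (control) and 6979 and 4909 (CUMS). Its partner strand let-7i-3p had 34 and 33 reads (control) and 31 and 42 reads (CUMS).

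The remaining 3p arms had few reads, and 4 of the 11 arms had at most 3 reads in some library. In let-7e-3p there were 46 and 27 reads (control) and 35 and 28 reads (CUMS). Identical reads stood under the names let-7c-2-3p and let-7a-1-3p, 27 and 9 (control) and 22 and 42 (CUMS), and RefSeq gives them the same mature sequence, so they are 1 measurement listed under 2 names. In miR-98-3p there were 6 and 0 reads (control) and 4 and 9 reads (CUMS), and in let-7a-2-3p 4 and 0 (control) and 0 and 0 (CUMS). Of the 11 arms, 10 passed the filter on low reads, 9 of these had a higher mean in CUMS, and 0 passed the test. With the shared arm counted once it was 8 of 9, and of all 719 miRNAs tested 363 had a higher mean in CUMS. The filter itself leans this count toward CUMS. The arms let-7b-3p and let-7f-2-3p reached 5 reads only in CUMS libraries, and the arm left out, let-7a-2-3p, had reads in control a alone. With no filter the count was 9 of 11, and without control b it was 7 of 10. The largest log2 differences rested on few reads, such as 1.48 for let-7f-2-3p, with 4 and 1 reads (control) and 10 and 6 reads (CUMS). The shared arm let-7a-1-3p had a log2 difference of 0.93, with overlapping groups. The log2 difference of let-7d-3p was 0.28 (standard error 0.28, 95% interval -0.40 to 0.97, limma adjusted p = 0.886), and it was -0.03 without control b. The 3p arm of Mirlet7f-1 was not analysed here.

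Besides the 9 members, the deposited values include 1 miRNA with the same seed, let-7k, which had 1 read in control a and 0 in the other libraries. RefSeq gives the seed to miR-1961 as well, which was not analysed here. The related let-7j differs from let-7a within the seed (G8U) and had 2 and 3 reads (control) and 4 and 5 reads (CUMS). Among the miRNAs analysed, the seed GAGGUAG was therefore carried almost wholly by the 9 members in these libraries. The family's share was 29.6% in control a with let-7k or without it.

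The miRNAs outside the family whose levels over the 4 libraries were most like the summed family were found by the Euclidean distance between log2 profiles, each centred on its own mean, among 156 candidates. These were the 170 miRNAs with a mean of 1000 or more, less the 9 members and the 5 miRNAs of the same primary transcripts. The nearest was miR-598-3p, at a distance of 0.07, with 6189 and 4698 normalized counts (control) and 4155 and 4835 (CUMS). Like the family with the pair of reads taken for let-7f-5p, it was highest in control a and lowest in CUMS a. The next 4 were miR-369-3p, miR-376b-5p, miR-369-5p and miR-409-3p, at distances of 0.23 to 0.25. Their profiles had the same high library with a smaller amplitude, as the centred value of control a was 0.35 for the family and between 0.14 and 0.21 for these 4. This ranking rests on the pair of reads taken for let-7f-5p in control and was not repeated with the next best pair. Under that pair the family's share was 19.4% in control a and 29.3% in control b, so control b would be the family's high library.

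**Figure D5:**
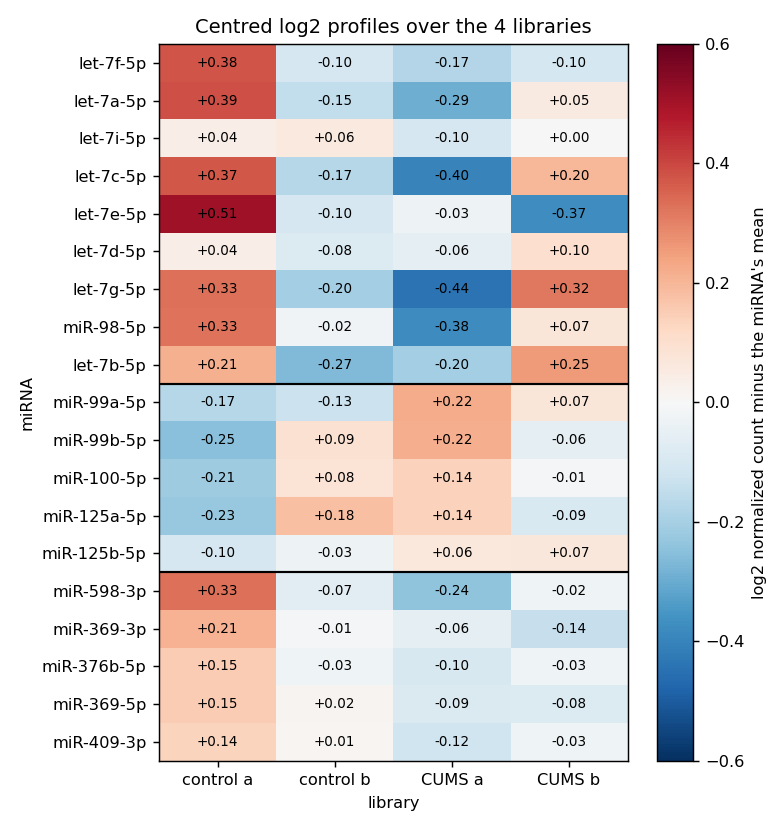
Each cell gives the log2 normalized count minus the mean of that miRNA over the 4 libraries, for the 9 members (top), the 5 miRNAs of the same primary transcripts (middle) and the 5 most alike miRNAs (bottom). With the pair of reads taken for let-7f-5p, control a is above the mean in all 9 members, from 0.04 to 0.51. It is below the mean in the 5 miRNAs of the same transcripts, from -0.25 to -0.10.

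Marker miRNAs of cell types were read beside these values to check the labelled tissue. The neuronal list, miR-124-3p, miR-9-5p, miR-128-3p, miR-138-5p and miR-129-5p, was present with all 5 miRNAs and summed to 853749 and 727736 normalized counts (control) and 817869 and 962950 (CUMS). Its most abundant miRNA was miR-9-5p. The 3 oligodendrocyte markers, led by miR-338-3p, summed to 7887 and 8365 (control) and 6162 and 7338 (CUMS). The liver marker miR-122-5p had 0 reads in both control libraries and 1 read in each CUMS library. These values fit brain tissue, with the epithelial miRNAs of control b as the exception.

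The sums of the other lists were also not highest in control a. The 3 red cell markers, led by miR-486a-5p, summed to 119742 and 115169 (control) and 114587 and 135230 (CUMS). The 4 immune markers, led by miR-142a-5p, summed to 1435 and 1235 (control) and 1397 and 1634 (CUMS), with 5, 1, 1 and 2 reads of miR-155-5p. The 2 endothelial markers, led by miR-126a-5p, summed to 13692 and 12754 (control) and 13020 and 14763 (CUMS). The 2 markers of choroid plexus and pigment cells, led by miR-204-5p, summed to 16941 and 22015 (control) and 15959 and 12627 (CUMS). Of the 3 muscle markers 2 were analysed, led by miR-133a-3p, with sums of 226 and 348 (control) and 194 and 197 (CUMS). These sums rest mostly on the most abundant marker of each list. Of the 30 markers read, 5 were highest in control a. They were miR-211-5p (127, 20, 92 and 17 reads), miR-223-3p (25, 5, 4 and 14 reads), miR-155-5p, miR-219a-5p and miR-219a-2-3p (3412, 3296, 2369 and 2792 reads). The part of these miRNAs in the values of the let-7 family was not tested.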

How the data were processed

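Small RNA of 4 libraries, 2 per group, was analysed. The authors removed adaptor, low-quality and other noncoding RNA reads, matched the rest exactly to miRBase precursors, and summed reads by mature miRNA; the submitters' processing notes name Bowtie, DESeq and mm10. In the table that the authors deposited, the signal is a group mean of reads divided by DESeq size factors. Its fold changes, log2 fold changes, p-values and adjusted p-values are the authors' own comparison of the groups and were not used.

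Whole reads of each library were solved from the group means with 2 steps per group, and 100% of 1038 values came out whole. Size factors recomputed as medians of ratios over 650 miRNAs equalled those in the steps. The groups were compared with limma 3.58.1 (trend) on log2 of the normalized count plus 1, over the 719 miRNAs reaching 5 reads in some library, with Benjamini-Hochberg adjustment over all of them and calls at 0.05. edgeR 4.0.16 and DESeq2 1.42.0 were run on the recovered reads as alternatives, and each called 0 miRNAs. Other alternatives changed the scaling, pseudocount, filter and denominators, or left out a library. In simulated data, recovery returned 1040 of 1040 values in both cases tried. There, limma, edgeR and DESeq2 called 163, 163 and 137 of 200 miRNAs changed 4-fold, with 2, 2 and 3 false calls. The simulated spread was fixed and the same for every miRNA, and a 4-fold change is larger than any difference of the members. These counts therefore do not give the power to detect differences as small as those of the members. Python 3.11.15, numpy 2.4.6, pandas 2.3.3, scipy 1.17.1, matplotlib 3.10.9 and R 4.3.3 were used. Named miRNAs were the members, their 3p arms, other miRNAs with the seed, 5p miRNAs of the same transcripts and the 5 most alike profiles. The members and lists were chosen with earlier results of these data known.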

Additional observations from a re-analysis of the deposited data

How the results depend on the processing

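No member was called under any of the 13 alternatives run with a test, and with 2 libraries per group this says little about stability. Of all miRNAs, limma called 7 of 690 without control a, none of them a member, and 0 under each other alternative. The median log2 difference of the members lay between -0.23 and -0.12 under 10 alternatives of scaling, pseudocount, filter or recovery, and between -0.47 and 0.03 with each library left out. In a fit that leaves a group with 1 library, that library is assumed to vary like the others. The number of members higher in CUMS was 2 under each change of scaling, pseudocount or filter, and ran from 0 to 5 with each library left out. The log2 difference changed sign with a library left out for let-7a (from -0.51 to 0.0285), let-7b (from -0.19 to 0.29), let-7c (from -0.50 to 0.10), let-7d (from -0.0343 to 0.12) and let-7g (from -0.51 to 0.25), and the cause was not tested. With the next best pair of reads for let-7f-5p in control, chosen after seeing the data, its log2 difference was 0.13 and 3 members were higher in CUMS. The difference in family share, CUMS minus control, lay between -4.22 and -0.99 percentage points under 6 other alternatives and between -7.61 and 1.29 with each library left out. Under every alternative 7 to 9 members kept their place in the order, and the ratio of guide to passenger reads lay between 2922 and 3575. No paired analysis was possible because the recovered libraries carry no replicate numbers. Depth limits the 3p arms, let-7j, let-7k and the rarest markers, where a few reads decide a value, and not the members.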
